A study of Gallus gallus with 4 samples.

Results

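Cultured chicken granulosa cells of 2 follicle phases, both transfected with a FOXL2 expression plasmid, were compared by RNA sequencing. The preovulatory FOXL2 library came from granulosa cells of F2 to F4 follicles, the large yolk-filled follicles of the hierarchy. It was set against the prehierarchical FOXL2 library, from cells of small yellow follicles (SYF) that had not yet entered the hierarchy. Both were primary cells of 26-week chickens, kept in M199 medium with 5% fetal bovine serum, and both carried pcDNA3.1-FOXL2, delivered by lipofection 18 h after plating and 48 h before harvest. The series holds 4 libraries, 1 per group; the other 2 are preovulatory and prehierarchical cells that received empty pcDNA3.1 under the same conditions, and they serve here as a second phase comparison that shares no library with the first. The genes described are the 10602, of 13819 in any table, whose mean over the 2 FOXL2 libraries was at least 1 FPKM (sequenced fragments scaled by transcript length and library size).

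Granulosa cells are the somatic cells that enclose the oocyte, exchange signals with it and make steroid hormones. In the hen, granulosa cells of small follicles are held in a poorly differentiated state, and cells of selected follicles acquire the capacity to make progesterone in response to gonadotropins acting through cyclic AMP. FOXL2 is a forkhead transcription factor needed for granulosa cell identity in the mouse ovary, and it regulates genes of steroid synthesis and of the transforming growth factor beta superfamily. The deposited tables give Ensembl identifiers without symbols, and none of them matched the reference gene table used here. FOXL2 itself, the steroid enzymes and the marker genes of granulosa, theca or immune cells were therefore not analysed here, and neither the plasmid labels nor the cell type labels have a check from their own genes.

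Each value below rests on 1 library and has no replicate error, so differences are described by size and carry no p-value. The preovulatory and prehierarchical FOXL2 tables listed 12600 and 12705 genes, with FPKM sums of 528405 and 556844. Low values of single-transcript genes fell on steps, and among shifts of up to 0.5 log2 units searched, the one that best aligned the steps of the 2 libraries was 0.03, within the tolerance of 0.04, so no difference in depth was detectable this way. Among 502 such low genes the smallest step had a median of 0.215 FPKM, with quartiles of 0.14 and 0.36 FPKM. If a step is 1 fragment, 1 FPKM at the median step corresponds to roughly 4.65 fragments, and 5 FPKM to 23.3. These numbers vary between genes as the step does. In the headers the value column of the prehierarchical FOXL2 library ends in the number 2 and that of the preovulatory FOXL2 library has no number. The column of the preovulatory control library ends in the number 1. What these numbers mark is not stated in the labels or headers. With 1 library per group, differences of phase and of single libraries cannot be told apart. In bulk RNA, fewer cells of a type and less RNA per cell cannot be told apart either.

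With the FOXL2 plasmid, preovulatory and prehierarchical cells differed most in genes that were low in preovulatory cells. Ratios are the log2 of (FPKM + 1) in preovulatory over prehierarchical cells, a scale that understates the difference of low genes. At 2-fold, 998 genes were higher in preovulatory cells (9.41% of genes tested) and 814 were lower (7.68%), together 17.1%. At 4-fold the order turned: 94 genes were higher and 209 were lower, these 209 with a median of 1.86 FPKM in preovulatory and 21.9 FPKM in prehierarchical cells. At 8-fold the counts were 10 higher and 59 lower, and at 16-fold 1 higher and 22 lower. All 7 genes past 32-fold were lower in preovulatory cells. Over the same genes the control pair also leaned this way, with 104 higher and 180 lower at 4-fold. Its counts were 22 and 53 at 8-fold, 1 and 13 at 16-fold, and 1 and 4 at 32-fold. For the FOXL2 pair, lower genes outnumbered higher ones at 4-fold with each of the 9 other pseudocounts, filters and scalings tried.

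The middle of the distribution lay on the other side. The median log2 ratio was 0.24, a factor of 1.18, and 6787 genes lay above 0 against 3812 below. Quartiles were -0.24 and 0.63, and 57.9% of genes were within 1.5-fold. The 2-fold counts depend on this shift. Centred on the median, the ratios put 555 genes 2-fold higher and 1151 lower, so that higher genes made up 32.5% of those 2-fold apart, against 55.1% as deposited. The threshold also cuts a continuous distribution: 218 genes lay within 0.1 log2 units inside the upper 2-fold boundary and 289 within 0.1 outside it, and at the lower boundary these numbers were 112 and 146.

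**Figure D1:**
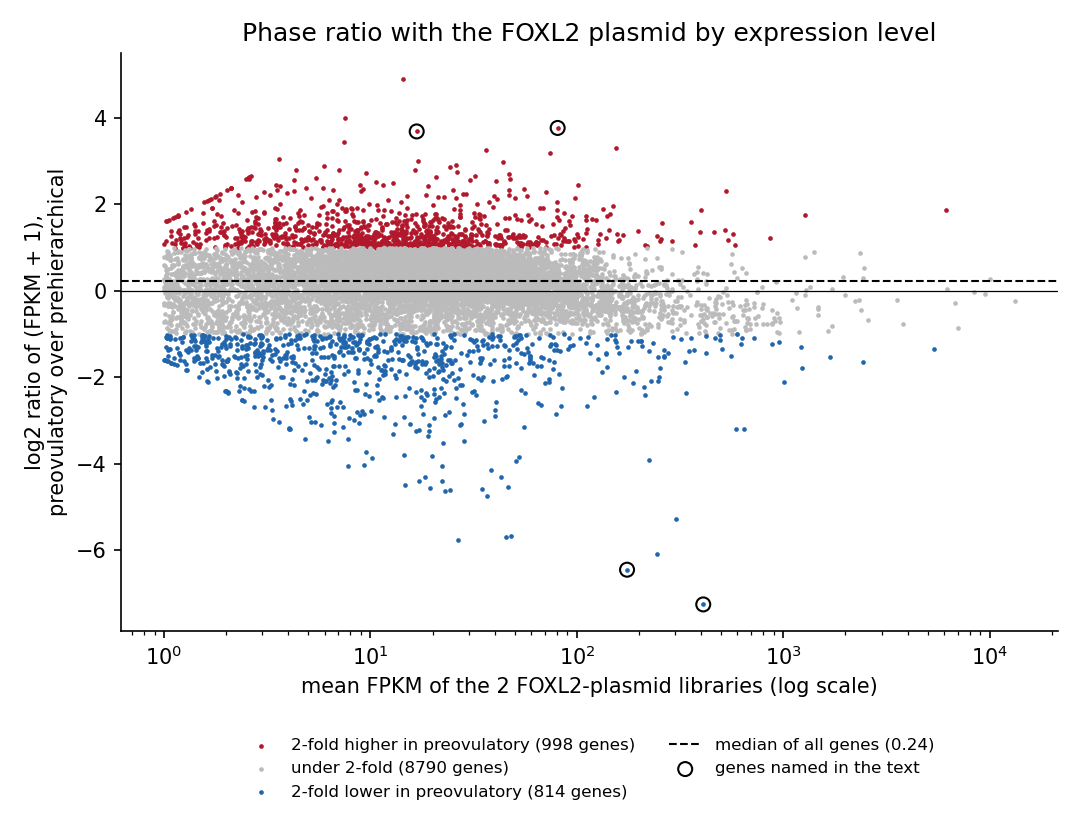
Log2 ratio of (FPKM + 1) in preovulatory over prehierarchical FOXL2 libraries (vertical axis) against the mean FPKM of the 2 libraries (horizontal log axis); each point is 1 of 10602 genes. The 998 genes 2-fold higher reach a log2 ratio of 4.89, the 814 genes 2-fold lower reach -7.25, and the dashed line is the median of 0.24.

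No replicate spread exists to set against these ratios, but the plasmid pairs within a phase show how close 2 libraries of this series can be. The birds and cell preparations behind each library are not given here, so the plasmid pairs do not measure the spread of a phase pair. Over the same 10602 genes the log2 ratios of the FOXL2 phase pair had an SD of 0.83. The preovulatory FOXL2 library against the preovulatory control had an SD of 0.33 and 1.31% of genes 2-fold apart, and the prehierarchical FOXL2 library against its control had an SD of 0.35 and 1.59%. The control libraries of the 2 phases had an SD of 0.80 with 15.2% of genes 2-fold apart. The FOXL2 phase pair was the widest of the 6 pairs by SD and by the share of genes 2-fold apart. The margin was small: preovulatory control against prehierarchical FOXL2 had an SD of 0.80 and 16.4% of genes 2-fold apart. Genes were kept by the mean of the 2 FOXL2 libraries, which can favour width in that pair, so the order of the phase pairs is a description.

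The widest ratios are given by identifier, 2 on each side, out of the 8560 genes that both FOXL2 tables list and whose mean reached 5 FPKM. ENSGALG00000022586 had 4.36 FPKM in preovulatory FOXL2 cells against 814.9 FPKM in prehierarchical FOXL2 cells, a log2 ratio of -7.25 and an FPKM quotient of 187 in favour of prehierarchical cells. It ranked 76 by abundance in the prehierarchical FOXL2 library and 8730 in the preovulatory one. In the control libraries it had 3.36 FPKM in preovulatory against 653.3 FPKM in prehierarchical cells, a log2 ratio of -7.23, so the gap was nearly the same with either plasmid.

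ENSGALG00000006992 had 2.99 FPKM in preovulatory FOXL2 cells against 347.2 FPKM in prehierarchical FOXL2 cells, a log2 ratio of -6.45. With the control plasmid it had 2.48 FPKM in preovulatory against 335.6 FPKM in prehierarchical cells, a log2 ratio of -6.60. Both genes were thus abundant in each prehierarchical library and within a few FPKM of 0 in each preovulatory library, and with a pseudocount of 5 FPKM their FOXL2 ratios were still -6.45 and -5.46.

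On the other side the ratios were narrower. ENSGALG00000009095 had 151.3 FPKM in preovulatory FOXL2 cells against 10.2 FPKM in prehierarchical FOXL2 cells, a log2 ratio of 3.77. With the control plasmid it had 108.6 FPKM in preovulatory against 10.7 FPKM in prehierarchical cells, a log2 ratio of 3.23. Its prehierarchical levels were nearly equal with both plasmids, and the wider ratio with FOXL2 lay in the preovulatory level. ENSGALG00000012327 had 31.9 FPKM in preovulatory FOXL2 cells against 1.56 FPKM in prehierarchical FOXL2 cells, a log2 ratio of 3.69. With the control plasmid it had 32.02 FPKM in preovulatory against 3.10 FPKM in prehierarchical cells, a log2 ratio of 3.01. Here the preovulatory level was nearly equal with both plasmids and the prehierarchical level differed, at values of a few FPKM that rest on few fragments; with a pseudocount of 5 FPKM its FOXL2 ratio was 2.49. For these 4 genes the preovulatory and prehierarchical libraries did not overlap, which for the FOXL2 pair follows from the choice of the genes. The share of all genes tested without such overlap is not given here, so the lack of overlap is no separate result.

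**Figure D2:**
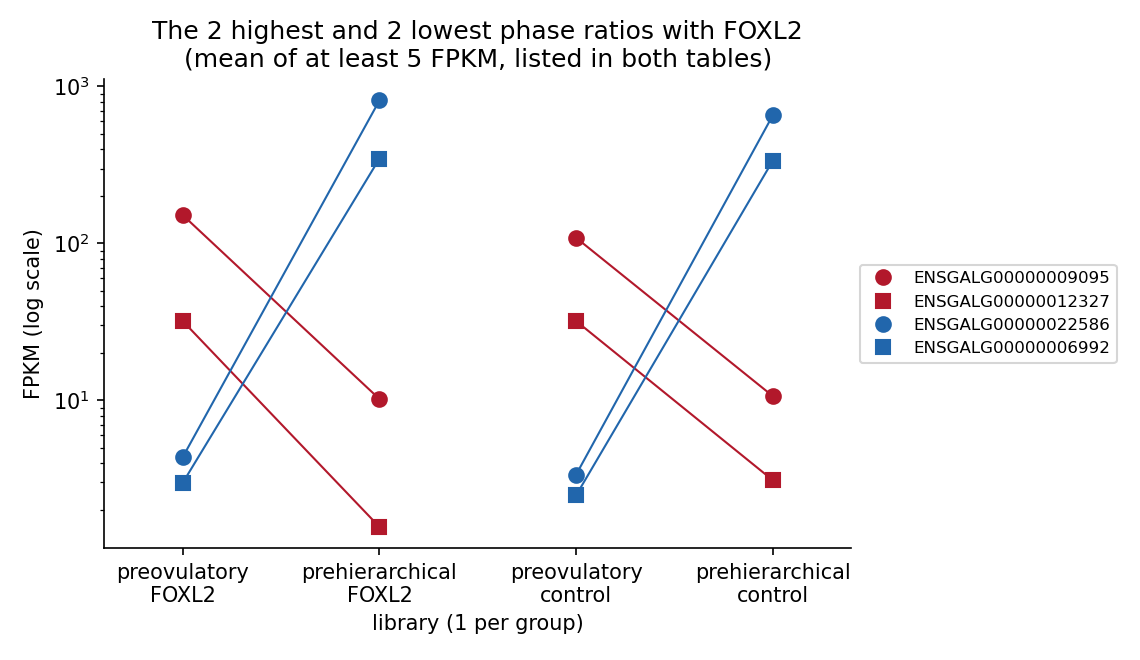
FPKM (log axis) of the 2 highest and 2 lowest phase ratios with FOXL2 in each of the 4 libraries; lines join the libraries of 1 plasmid. The 2 prehierarchical genes stay between 2.48 and 4.36 FPKM in preovulatory libraries and between 335.6 and 814.9 FPKM in prehierarchical ones, and the 2 preovulatory genes run the other way over a narrower range.

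The phase ratio depended on how abundant a gene was. Genes of 10 to 30 FPKM had the highest median ratio, 0.37 over 3653 genes, and the 840 genes of at least 100 FPKM had the lowest, -0.26. The medians in between were 0.02 at 1 to 3 FPKM, 0.28 at 3 to 10 FPKM and 0.20 at 30 to 100 FPKM. With the median of all genes set to 0, the classes at 1 to 3 and 30 to 100 FPKM also lie below 0. The control libraries, divided into the same classes, had medians of 0.27 at 10 to 30 FPKM and -0.13 at 100 FPKM and over. With both plasmids, genes of 10 to 30 FPKM were thus shifted towards preovulatory cells on the deposited scale. Those of at least 100 FPKM were shifted towards prehierarchical cells. FPKM values are relative to library size, so higher abundant genes in a library and lower other genes there cannot be told apart.

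Shares of genes 2-fold apart also varied with level, but not in step with the medians. At 1 to 3 FPKM, preovulatory cells had 12.1% of 1282 genes 2-fold higher and 15.1% lower, at levels where few fragments decide a ratio. At 3 to 10 FPKM, 12.9% were higher, the largest such share of the classes, and 10.1% were lower. At 10 to 30 FPKM the shares were 9.20% higher and 5.34% lower. At 100 FPKM and over they were 5.48% higher and 8.93% lower. The 4-fold genes were mostly lower in preovulatory cells in every class above 3 FPKM, with 28 higher and 75 lower at 3 to 10 FPKM, 22 and 65 at 10 to 30 FPKM, 21 and 32 at 30 to 100 FPKM, and 3 and 17 at 100 FPKM and over. At 1 to 3 FPKM there were 20 on each side.

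**Figure D3:**
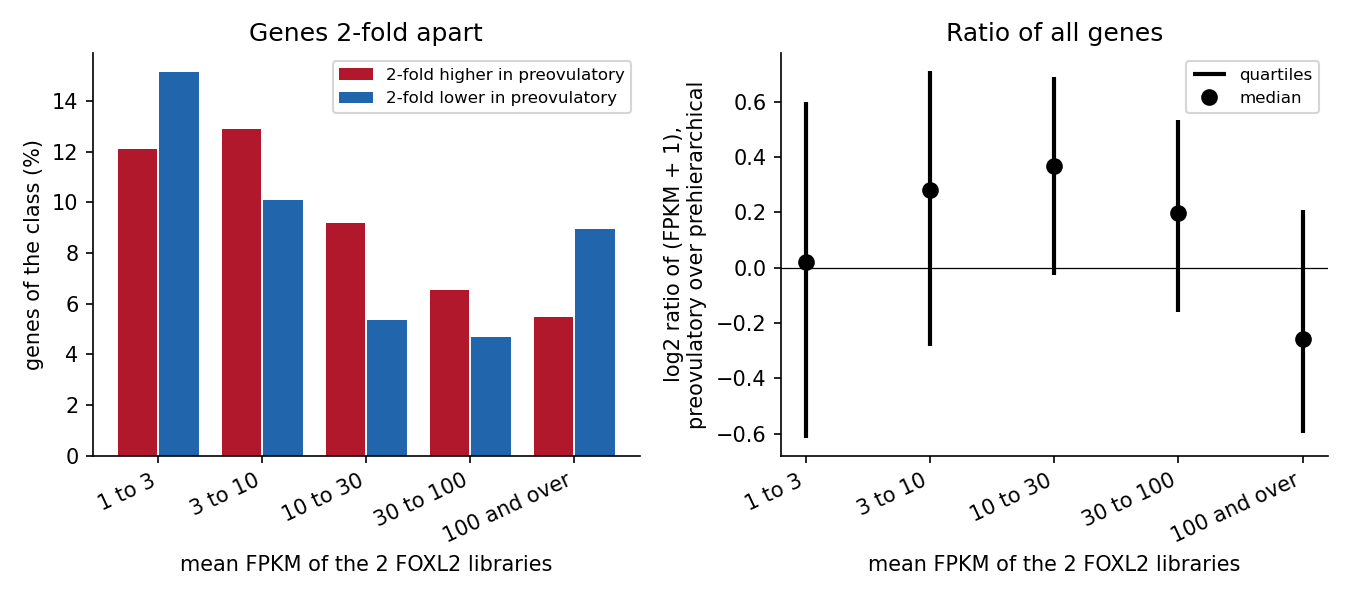
Left, the share of genes 2-fold higher and 2-fold lower in preovulatory FOXL2 cells by class of mean FPKM; right, the median log2 phase ratio (points) with its quartiles (lines) in the same classes. On the deposited scale higher genes outnumber lower ones between 3 and 100 FPKM (with the median of all genes set to 0 they make up 32.5% of all genes 2-fold apart), and the median is lowest, at -0.26, in the most abundant class.

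Among abundant genes, those whose mean reached 100 FPKM, 46 were 2-fold higher in preovulatory FOXL2 cells and 75 lower. The 46 had a median of 239.1 FPKM in preovulatory and 97.1 FPKM in prehierarchical FOXL2 cells, and their control medians were 229.1 FPKM in preovulatory and 100.02 FPKM in prehierarchical cells. The 75 had a median of 116 FPKM in preovulatory and 390.9 FPKM in prehierarchical FOXL2 cells, with control medians of 123.1 FPKM in preovulatory and 330.2 FPKM in prehierarchical cells. In the control libraries 31 of the 46 were 2-fold higher and 50 of the 75 were 2-fold lower, where 44 (5.24%) and 60 (7.14%) of all 840 genes at this level were, and 0 of either group were 2-fold apart the opposite way.

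The top 1000 genes by level held 59.2% of all FPKM in preovulatory FOXL2 cells and 66.0% in prehierarchical FOXL2 cells. The corresponding shares with the control plasmid were 60.1% in preovulatory and 63.8% in prehierarchical cells. The top 10 genes held nearly equal shares with FOXL2, 14.1% in preovulatory and 14.5% in prehierarchical cells, and with the control plasmid the order was reversed, at 14.7% in preovulatory and 13.7% in prehierarchical cells. Levels of at least 1000 FPKM were reached by 37 genes in the preovulatory and 54 in the prehierarchical FOXL2 library. In the control libraries these counts were closer, at 35 in preovulatory and 43 in prehierarchical cells. Of the top 100 genes, 75 were common to both control libraries and 77 to both FOXL2 libraries. The 23 found only in the preovulatory top 100 had a median rank of 170 in prehierarchical cells and a worst rank of 462; the 23 found only in the prehierarchical top 100 had a median rank of 135 in preovulatory cells, with 1 as low as rank 8730, which was ENSGALG00000022586.

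Genes 2-fold apart held a minor part of the message. The 998 higher genes made up 9.86% of the summed FPKM in the preovulatory and 3.26% in the prehierarchical FOXL2 library. The 814 lower genes held 4.15% in the preovulatory and 12.1% in the prehierarchical library. Genes under 2-fold, 8790 in number, held 85.8% in preovulatory and 84.4% in prehierarchical cells. With the median ratio set to 0 the lower genes held 9.40% of FPKM in preovulatory and 21.3% in prehierarchical cells.

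Few genes were present in 1 phase and missing in the other at a measurable level. The preovulatory FOXL2 table alone listed 602 genes and the prehierarchical FOXL2 table alone listed 707. The 602 had a median of 0.27 FPKM in preovulatory cells and the 707 a median of 0.28 FPKM in prehierarchical cells. Both are close to a single step, but the step size was itself read from genes missing from a table, so this closeness is no separate result. At least 5 FPKM was reached by 7 of the 602 and by 9 of the 707. Of the 602, the control tables listed 141 for preovulatory cells only, 74 for prehierarchical cells only, 187 for both and 200 for neither. Of the 707, they listed 90 for preovulatory cells only, 223 for prehierarchical cells only, 202 for both and 192 for neither. Of the 11998 genes in both FOXL2 tables, they listed 166 for preovulatory cells only and 165 for prehierarchical cells only. These 11998 are no match in level, with a median of 15.1 FPKM in preovulatory FOXL2 cells. Of the 512 genes in neither FOXL2 table, the control tables listed 236 for preovulatory cells only and 186 for prehierarchical cells only. Among the genes tested, 28 higher and 31 lower ones were missing from 1 FOXL2 table, and the highest log2 ratio of all, 4.89, belonged to such a gene. Such ratios depend on the pseudocount.

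The control libraries show how far the phase difference seen with the FOXL2 plasmid is also present without that plasmid. They share no library with the FOXL2 pair, but whether they share birds or cell preparations with it is not given here. Over the same 10602 genes, 773 were 2-fold higher in preovulatory control cells (7.29%) and 840 lower (7.92%). Of the 998 genes higher with FOXL2, 404 were 2-fold higher with the control plasmid, which is 40.5% of the FOXL2 list and 52.3% of the control list. Of the 814 lower with FOXL2, 560 were 2-fold lower with the control plasmid, 68.8% of the FOXL2 list and 66.7% of the control list. Both shares were several times the background, at 40.5% against 7.29% for higher and 68.8% against 7.92% for lower genes. The gap between the shares of the higher and lower genes was not tested, since genes are not independent replicates. Most of the rest kept their direction: of the 594 higher genes left, 538 (90.6%) lay above 0 in the control pair, and of the 254 lower genes left, 211 (83.1%) lay below it, where 61.6% and 38.3% of all genes tested did.

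**Figure D4:**
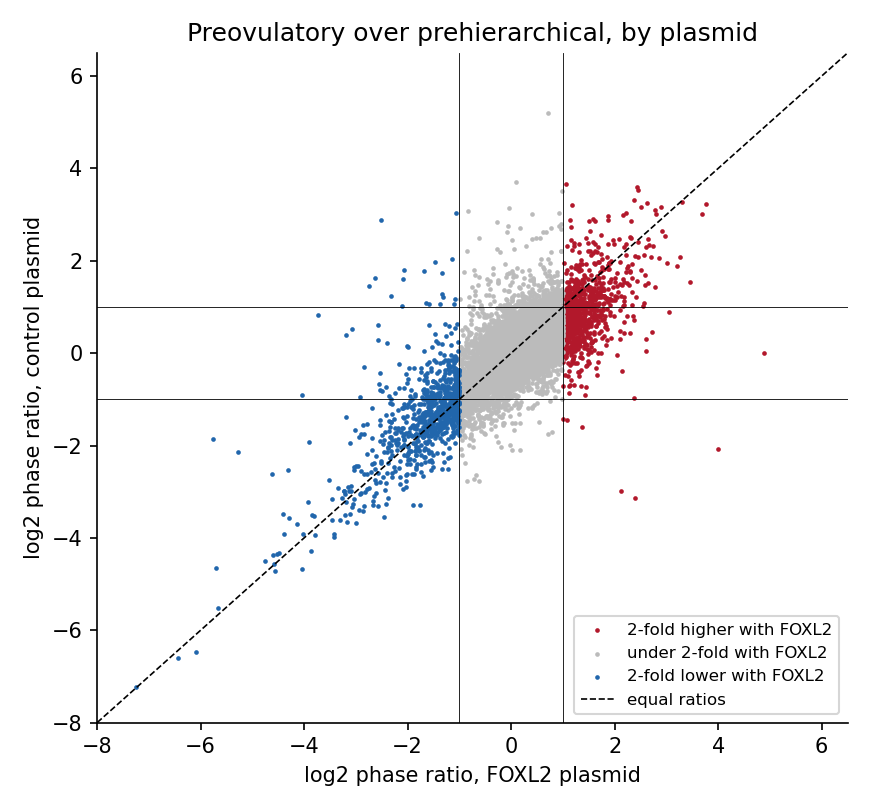
Log2 phase ratio with the control plasmid (vertical axis) against that with the FOXL2 plasmid (horizontal axis) for 10602 genes; thin lines mark 2-fold and the dashed line equal ratios. Of the 998 genes to the right of the upper 2-fold line, 404 lie above the upper horizontal line, and of the 814 to the left of the lower line, 560 lie below the lower horizontal line.

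The share carried over was larger for genes past 4-fold than for genes 2- to 4-fold apart. With correlated phase ratios (Pearson 0.76) and a fixed 2-fold cut in the control pair, such a rise is built in, so it is a description. Of 904 genes 2- to 4-fold higher with FOXL2, 36.5% were 2-fold higher with the control plasmid, and of 84 genes 4- to 8-fold higher 79.8% were. Of 10 genes at least 8-fold higher, 7 were. On the other side, 63.0% of 605 genes 2- to 4-fold lower, 82.7% of 150 genes 4- to 8-fold lower and 93.2% of 59 genes at least 8-fold lower were 2-fold lower with the control plasmid. With 10 genes on the higher side past 8-fold, the comparison of sides rests on the genes under that size, and the gap was widest at 2- to 4-fold. Genes of that size had a median log2 ratio of 1.24 on the higher side with FOXL2 and of 0.82 with control, and of -1.36 on the lower side with FOXL2 and of -1.22 with control. By level, the share ran from 37.3% to 45.8% for higher genes under 100 FPKM and was 67.4% for the 46 of at least 100 FPKM; for lower genes it ran from 59.8% at 1 to 3 FPKM to 75.4% at 10 to 30 FPKM. Over all genes of a class, the share 2-fold higher with control was 11.5% at 1 to 3 FPKM and 5.24% at 100 FPKM and over, and the share 2-fold lower was 15.4% at 1 to 3 FPKM and 5.86% at 10 to 30 FPKM.

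**Figure D5:**
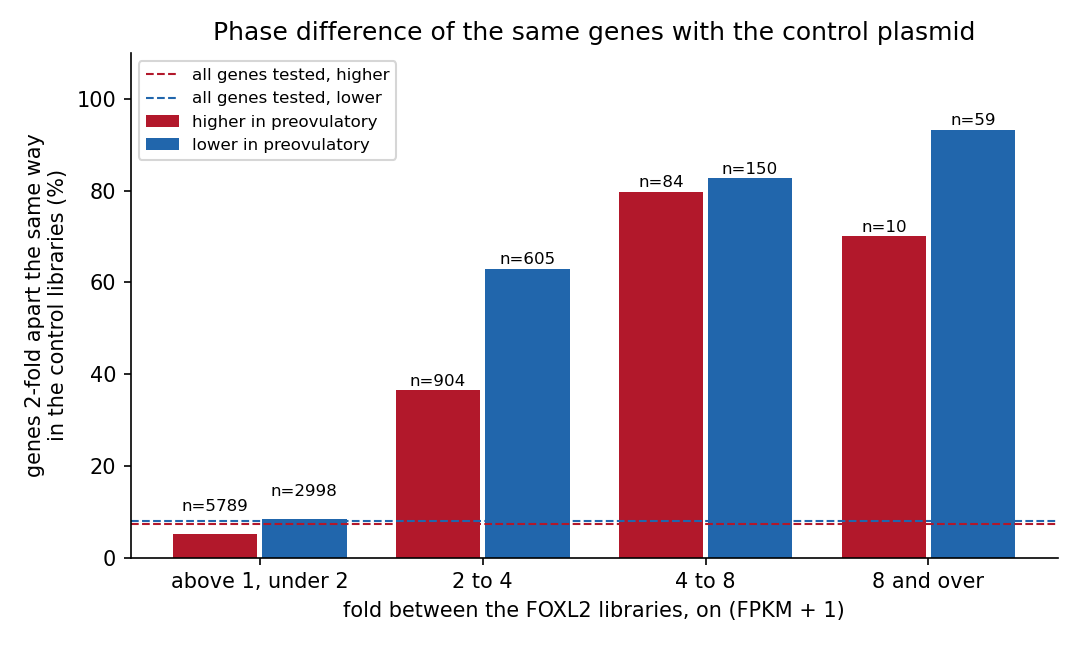
Share of genes that were 2-fold apart the same way in the control libraries (vertical axis, %), by the fold between the FOXL2 libraries (horizontal axis), for genes higher and lower in preovulatory cells; n is the number of genes and dashed lines give the share over all genes tested. The share reaches 93.2% for genes at least 8-fold lower, and at 2 to 4 fold it is 36.5% for higher and 63.0% for lower genes.

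A stricter group is formed by genes in which each preovulatory library was at least 2-fold above each prehierarchical library, or below it, on the (FPKM + 1) scale. It held 357 genes higher in preovulatory cells (3.37% of genes tested) and 509 lower (4.8%). Both figures use the FOXL2 pair that defines the comparison and are descriptions. The 357 had medians of 21.0 FPKM in preovulatory FOXL2, 6.09 FPKM in prehierarchical FOXL2, 21.4 FPKM in preovulatory control and 6.60 FPKM in prehierarchical control cells. The 509 had medians of 3.43 FPKM in preovulatory FOXL2, 18.4 FPKM in prehierarchical FOXL2, 3.57 FPKM in preovulatory control and 18.3 FPKM in prehierarchical control cells. The group medians were nearly the same with both plasmids, but so were medians over all genes tested. Those were 18.66 FPKM in preovulatory FOXL2 and 18.5 FPKM in preovulatory control cells. In prehierarchical cells they were 15.195 FPKM with FOXL2 and 15.955 FPKM with control, so the similarity is not particular to these groups. Among the 357, the FOXL2 phase ratio was at least 2-fold above the control phase ratio for 14 and at least 2-fold below for 19. Among the 509 these counts were 8 and 19. Over all genes tested the shares were 3.17% above and 2.97% below. Together the lower 509 held 2.58% of FPKM in preovulatory and 8.47% in prehierarchical FOXL2 cells.

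A further 588 genes were 2-fold higher with FOXL2 but under 2-fold in either direction with the control plasmid. Their medians were 16.1 FPKM in preovulatory and 6.46 FPKM in prehierarchical FOXL2 cells, and 13.3 FPKM in preovulatory and 8.94 FPKM in prehierarchical control cells. Both phases differed from their controls in these medians, upwards in preovulatory and downwards in prehierarchical cells, and 480 of the 588 genes were above their preovulatory control and below their prehierarchical control. The choice of genes by a wide FOXL2 ratio and a narrower control ratio favours that pattern, so it is no separate result. For 143 of the 588 the FOXL2 phase ratio exceeded the control phase ratio by at least 2-fold, where 3.17% of all genes tested did. The same choice of genes favours this excess. On the lower side, 235 genes were 2-fold apart with FOXL2 and under 2-fold with control, with medians of 3.81 FPKM in preovulatory and 12.1 FPKM in prehierarchical FOXL2 cells, and of 5.62 FPKM in preovulatory and 9.26 FPKM in prehierarchical control cells. For 71 of these the FOXL2 phase ratio was at least 2-fold below the control phase ratio, where 2.97% of all genes tested were. Here too the choice of genes favours the gap.

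The reverse case also occurred. Of the 10602 genes tested, 369 were 2-fold higher in preovulatory cells with the control plasmid but not with FOXL2. Another 280 were 2-fold lower with the control plasmid but not with FOXL2. The 369 had medians of 11.1 FPKM in preovulatory and 8.08 FPKM in prehierarchical FOXL2 cells. In control cells the medians were 15.5 FPKM in preovulatory and 5.59 FPKM in prehierarchical cells. The choice of genes by a wide control ratio and a narrower FOXL2 ratio favours such medians, so they are no separate result. Over all genes tested, the FOXL2 phase ratio was at least 2-fold above the control phase ratio for 336 genes (3.17%) and at least 2-fold below it for 315 (2.97%). At 4-fold the counts were 25 above and 70 below, and at 8-fold 5 and 26. The single widest difference was above, at a log2 value of 6.08, and the lowest was -5.39. These differences rest on 1 library per group and were not tested; the 2-fold counts ran from 80 to 622 above and from 119 to 491 below over the settings tried.

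The count of transcripts listed for a gene made little difference. Of 10046 genes with 1 transcript, 9.36% were 2-fold higher and 7.61% lower in preovulatory FOXL2 cells. Of 556 genes with 2 or more transcripts, 10.4% were higher and 8.81% lower.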

How the data were processed

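For each of 4 libraries the authors deposited 1 table of FPKM values per Ensembl gene, per the file headers. Bowtie, RSEM and build galGal4 are named in the submitters' processing notes; versions, parameters, strand use and pooling are not stated there. RSEM divides fragments among similar transcripts, so near-identical genes are uncertain. Tables start at 0.01 FPKM, and a missing gene was set to 0. Without fragment counts the absolute depth is unknown. Steps were read from single-transcript genes: the shift between libraries from 2152 of at least 0.15 FPKM in both libraries with a mean under 3, where the best shift put 37.3% of ratios within 0.04 log2 units of a fraction of whole numbers, against a median of 16.1% over all shifts; the step size from the nearly equal lowest values of genes missing from a table.

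Genes whose mean over the 2 FOXL2 libraries reached 1 FPKM were kept. Log2 ratios of (FPKM + 1), with no further scaling, were taken with numpy 2.4.6 and pandas 2.3.3 (Python 3.11.15). With 1 library per group no test was run. The counting was checked on simulated data. Named genes are the 2 highest and 2 lowest ratios of genes that both FOXL2 tables list and whose mean reached 5 FPKM. None of 13819 identifiers matched the reference table (GRCg7b), so 11 gene lists were not analysed here. The comparison, groups and rules were chosen with earlier results of these data known. Alternatives were other pseudocounts, filters and scalings.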

Additional observations from a re-analysis of the deposited data

Results flagged for a closer look

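The phase difference pointed in opposite directions with the 2 plasmids for 25 genes that were at least 2-fold apart between phases with each; they stand out because the single FOXL2 pair and the single control pair moved against each other, and the difference was not tested. Of these, 6 were higher in preovulatory cells with FOXL2 and lower with control. They are 0.601% of the 998 genes higher with FOXL2, where 7.92% of the 10602 genes tested were 2-fold lower with control. Their medians were 2.93 FPKM in preovulatory and 0.17 FPKM in prehierarchical FOXL2 cells, and 0 FPKM in preovulatory and 4.13 FPKM in prehierarchical control cells; 5 of the 6 had a mean under 5 FPKM and 4 were missing from at least 1 table.

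The other 19 were lower in preovulatory cells with FOXL2 and higher with control. They are 2.33% of the 814 genes lower with FOXL2, where 7.29% of all genes tested were 2-fold higher with control. Their medians were 1.38 FPKM in preovulatory and 7.89 FPKM in prehierarchical FOXL2 cells, and 4.88 FPKM in preovulatory and 1.34 FPKM in prehierarchical control cells. The mean of the FOXL2 libraries was under 5 FPKM in 11 of the 19 and reached 30 FPKM in 2, and 3 of the 19 were missing from at least 1 table.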

How the results depend on the processing

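Each of 21 values (counts, shares, the median ratio and the 4 named genes) was recomputed under 9 other settings, and 144 of the 189 recomputed values moved by less than 1.5 times, or by less than 0.1 for the median log2 ratio. For the named genes the limit of 1.5 times applies to the fold, not to its log2 value. The filters cannot change the ratio of a named gene, and those unchanged ratios are among the 144. No named gene changed direction, which their choice by the widest ratios made likely beforehand. With a pseudocount of 0.1 FPKM, 216 genes were 4-fold higher and 377 lower, 74 were 16-fold lower, and the FOXL2 and control phase ratios differed 2-fold for 595 genes above and 491 below and 4-fold for 110 and 141. With 5 FPKM the 2-fold counts were 396 higher and 424 lower, the 4-fold counts 24 and 75, the 16-fold lower count 6, and the differences 80 and 119 at 2-fold and 3 and 22 at 4-fold. With a mean of at least 5 FPKM, 539 genes were 2-fold lower and 62 were 4-fold higher, and the differences were 201 and 191 at 2-fold and 11 and 42 at 4-fold. With the median ratio set to 0, 555 genes were 2-fold higher (32.5% of those apart) and 61 were 4-fold higher; higher genes held 6.57% of FPKM in preovulatory and 1.86% in prehierarchical cells, and lower genes 9.40% and 21.3%. With equal upper quartiles the median ratio was -0.0054, 558 genes were 2-fold higher (32.3%), and the shares were 6.44% and 1.81% for higher and 10.2% and 22.6% for lower genes. Rescaling to equal FPKM sums (TPM) raised all values, while the pseudocount and the filter stayed at 1. The pseudocount thus became smaller relative to the values, and 11182 genes were tested. Counts with this scaling therefore do not show the effect of equal sums only. Under it 1430 genes were 2-fold higher and 928 lower (60.6% higher). With that scaling 164 genes were 4-fold higher, and the differences were 622 above at 2-fold and 73 and 108 at 4-fold. The share of FOXL2 genes also 2-fold apart with control ran from 35.9% to 43.3% for higher and from 66.1% to 73.7% for lower genes. No paired analysis was possible because the comparison of 1 library a side carries no test. An additive fit of phase and plasmid over the 4 libraries was not run here, and no library could be left out of a pair. Values near 1 FPKM rest on few fragments.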
